A study of Mus musculus with 4 samples.

Results

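The comparison described here is between AppSAA and wild-type (WT) mice that both received the isotype control, with all sorted microglia of a mouse summed. It covered 8 of the 20 mice of the study, 4 of each genotype, and 28729 of its 74758 cells. WT mice were homozygous for a human transferrin receptor knock-in (hTfR KI HOM), and AppSAA mice carried the same knock-in plus a homozygous APP-SAA allele, so the receptor knock-in was shared by both sides. All 8 mice were given 10 mg per kg of the isotype labelled ATV-DNP02, an antibody in the transferrin receptor-binding format (ATV), and were sampled 24 hours later. The mice were 8 months old. Every pool, of which there were 4, combined 1 mouse from each group, and cells were tagged, sorted for CD11b, captured and sequenced within a pool, so the pools pair the mice. Of the 8 mice, 7 were recorded as male, and the WT mouse of pool 4 was recorded as female.

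AppSAA is a knock-in model in which the mouse App gene carries a humanised amyloid-β region with familial Alzheimer's disease mutations, expressed from the gene's own promoter, so that plaques form without a transgene. Microglia are the resident macrophages of the brain. Around plaques they are known to lower the purinergic receptors and adhesion molecules of the surveying state and to raise a program of lipid handling, lysosomal and antigen presentation genes, often called the disease-associated microglia (DAM) or plaque response, part of which depends on the lipid receptor Trem2 and its adaptor Tyrobp. The isotype arm gives the genotype difference without a Trem2 antibody.

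Cells per mouse ranged from 2193 to 2988 in WT and from 3466 to 6126 in AppSAA mice, and summed unique molecular identifiers (UMIs) from 17150296 to 28310535 and from 36020179 to 74456342. Equal portions of each suspension were pooled before the sort, so cell numbers were not compared. The cells carried the markers of their label, since in 3 of 28729 cells the UMIs of some other cell type's marker list exceeded those of the 6 microglial markers. Summed over a mouse, border-associated macrophage markers held 17.8 to 32.2 counts per 1000000 UMIs (CPM) in WT and 15.7 to 28.6 in AppSAA mice and lymphocyte markers at most 0.707. Astrocyte markers held 128 to 144 CPM in WT and 89.7 to 111 in AppSAA mice, with 1 called lower, and neuron markers 2.12 to 2.56 and 0.674 to 1.28, with 2 called lower. The endothelial markers, 5 in number, summed to 17.5 to 22.7 CPM in WT and 40.2 to 51.7 in AppSAA mice, with 2 called higher and 1 lower. The most abundant was Flt1, at a mean of 19.4 CPM over the isotype mice. Its log2 fold change was 3.18 to 3.79 when 1 mouse at a time was left out. The rise of Flt1 was thus larger than that of the sum, and the remaining endothelial markers were together lower in AppSAA mice. The part of these cell types in the results was not tested. There were 84 cell barcodes that occurred in isotype mice of different pools and 0 that occurred in different mice of 1 pool. Within a pool each barcode is assigned to 1 mouse, so that 0 does not test for a mix-up between mice. Xist, the RNA that silences an X chromosome, was at 1305 CPM in the female WT mouse and at most 6.79 in the other mice, so Xist and Y-linked genes were not read as genotype differences. The value of 6.79 was that of the AppSAA mouse of the same pool, and the remaining mice were at most at 0.266. In the female WT mouse the Y-linked Ddx3y and Eif2s3y were at 5.46 and 2.93 CPM, beside 77.5 to 87.9 and 57.4 to 58.2 in the other WT mice. The source of these counts, and its part in other low values, was not tested. Of the X-linked genes named below, Gla, Ndufa1, Pgk1, Cybb and Nhsl2 kept their calls and direction without the female mouse.

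Of 14058 genes tested with edgeR, 7166 (51.0%) were called at an adjusted p of 0.05, 3026 of them higher (21.5%) and 4140 lower (29.4%) in AppSAA mice. Without the pool as a term 3960 were called. Most of these differences were small. Rises of more than 2-fold were called for 735 genes (5.23%), and falls of more than 2-fold for 115 (0.818%). The CPM values of the 8 mice did not overlap between the genotypes for 3851 genes (27.4%). The balance of rises and falls changed with the processing. Rises outnumbered falls without the pool term (2028 and 1932), without pool 4 (2823 and 2572) and without the filter on low counts (3463 and 2893). Without the female WT mouse of pool 4 alone, falls still outnumbered rises (3529 and 2792). Values here are relative to library sizes adjusted by the trimmed mean of M-values (TMM), under which the median log2 fold change of all genes was -0.06. With plain library totals the median was -0.24, and 9356 genes were called, 1860 higher and 7496 lower. A small rise, of a size up to this shift in the median, can therefore change its direction with the scaling. Counts for each gene list below are to be read beside the 21.5% higher and 29.4% lower of all genes, and those with plain library totals beside 1860 higher and 7496 lower of 14058. Genes measured at a mean of at least 10 CPM made up 196 of the 735 large rises and 18 of the 115 large falls, and the plot of all tested genes shows this asymmetry.

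**Figure D1:**
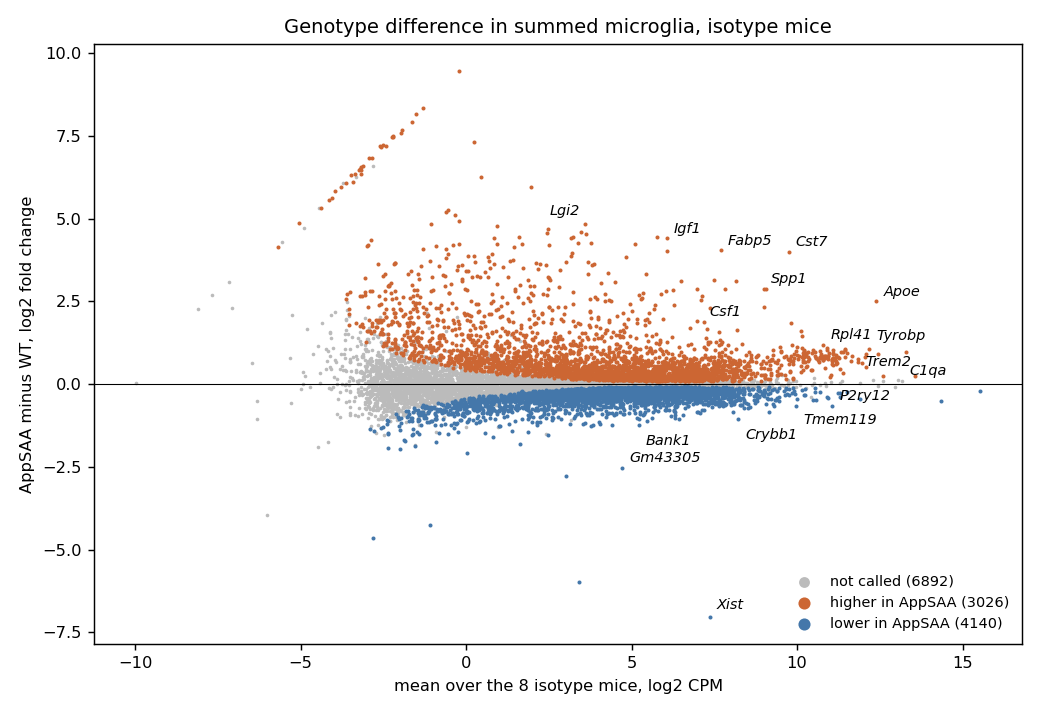
Every gene tested (points), by its mean over the 8 isotype mice in log2 CPM (x axis) and its log2 fold change, AppSAA minus WT (y axis). Colours mark the 3026 genes called higher, the 4140 called lower and the 6892 not called. Among abundant genes, Apoe, Cst7 and Fabp5 stand far above 0, whereas P2ry12 and Tmem119 lie less than 1 log2 unit below it; Xist reflects the single female WT mouse.

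Cst7 (chr2:150570415-150578944, GRCm38), which encodes the lysosomal protease inhibitor cystatin F, combined a high level with one of the largest rises. It was at 99.1, 99.6, 108 and 96.0 CPM in the WT mice of pools 1 to 4 and at 1657, 1897, 1566 and 1328 in the AppSAA mice. The log2 fold change was 4.00 (SE 0.12, adjusted p = 3.2e-13). The lowest AppSAA mouse was thus more than 10 times above the highest WT mouse. Igf1, a growth factor, was at 4.15, 8.88, 5.40 and 5.77 CPM in WT and at 111, 152, 142 and 105 CPM in AppSAA mice, a log2 fold change of 4.41 (SE 0.26, adjusted p = 2.8e-10). Gpnmb, a transmembrane glycoprotein of lipid-laden macrophages, was at 1.16, 4.98, 5.93 and 5.98 CPM in WT and at 96.2, 134, 137 and 46.9 CPM in AppSAA mice (log2 fold change 4.45, SE 0.39, adjusted p = 3.7e-08, and 5.05 without pool 4). The groups did not overlap for any of these genes, although Gpnmb varied almost 3-fold among the AppSAA mice.

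The largest rise among genes of at least 10 CPM was that of Lgi2, a secreted leucine-rich protein, from a WT mean of 0.809 ± 0.492 CPM (SD, n = 4) to 23.5 ± 2.66 CPM (log2 fold change 4.85, SE 0.33). Tcap, which encodes the sarcomere protein telethonin, followed with 4.61 (SE 0.50), Mamdc2 with 4.55 (SE 0.30), the heparan sulfate-degrading enzyme Hpse with 4.27 (SE 0.25), Etl4 with 4.26 (SE 0.18) and the membrane-curving protein Baiap2l2 with 4.24 (SE 0.22). The fatty acid-binding proteins Fabp5 and Fabp3 rose by 4.05 (SE 0.28) and 3.85 (SE 0.19) on the log2 scale. Fabp5 reached 295 to 503 CPM in AppSAA mice from 14.6 to 37.8 CPM in WT mice. All of these were near the limit of detection or low in WT microglia. There were also 32 genes with a called rise above 2-fold that had 0 UMIs in all 4 WT mice. Such genes passed the low-count filter only through other groups, so a fall could not be called for them. WT mice also held fewer UMIs in sum, which makes a count of 0 likelier, and the reverse case was not counted. Among the 32 genes the highest in AppSAA mice was Yipf7, a Golgi membrane protein, with 48, 84, 168 and 84 UMIs. This was at least 49.6-fold higher than the 3 UMIs that a count of 0 over the 4 WT mice allows. Yipf7 was singled out after its values were seen.

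**Figure D2:**
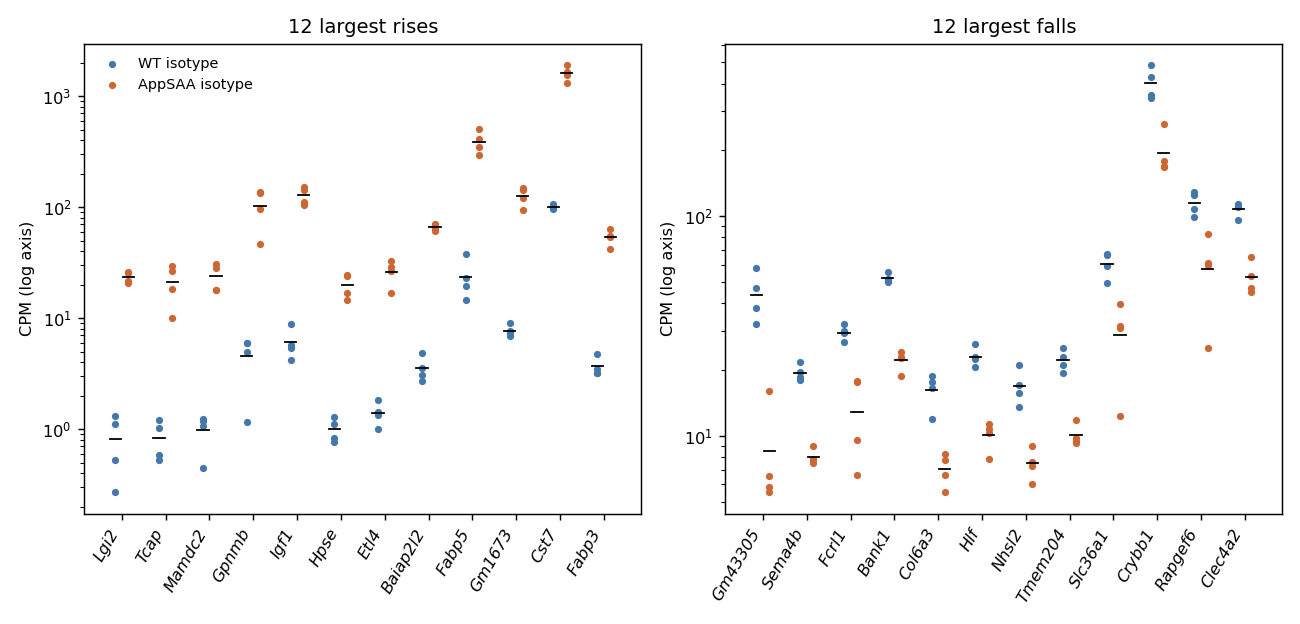
CPM of each isotype mouse (points, log axis; bars are means of 4 mice) for the 12 largest rises and the 12 largest falls among called genes with a mean of at least 10 CPM and no overlap between genotypes. Rises span more than a factor of 10 in each of the 12 genes, and falls apart from that of Gm43305 are close to a factor of 2.

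Falls were smaller. Bank1, a B cell scaffold protein that microglia also transcribe, was at 51.8, 50.2, 50.4 and 55.5 CPM in WT and at 24.1, 18.7, 22.5 and 22.8 CPM in AppSAA mice (log2 fold change -1.24, SE 0.07, adjusted p = 2.6e-10). Sema4b, a semaphorin, fell by 1.27 (SE 0.16), Col6a3, a collagen chain, by 1.19 (SE 0.11) and Hlf, a circadian-output transcription factor, by 1.19 (SE 0.14). Crybb1, a crystallin that marks surveying microglia, fell from 345 to 485 CPM in WT to 167 to 262 in AppSAA mice. Clec4a2, an inhibitory lectin receptor with close paralogs that may share reads, fell by 1.03 (SE 0.09), and Nhsl2, Tmem204 and Fcrl1 fell by 1.17, 1.13 and 1.25. Slc36a1, a lysosomal amino acid transporter, and Rapgef6, a Rap activator, fell by 1.12 (SE 0.32) and 1.05 (SE 0.28), with wide spread among AppSAA mice. For both the AppSAA mouse of pool 1 was the lowest, at 12.2 CPM for Slc36a1 against 31.0 to 39.9 in the other AppSAA mice. The gene model Gm43305 fell by 2.52 (SE 0.66). Without pool 4 the fall of Slc36a1 no longer passed the test (adjusted p = 0.051).

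All 41 genes of the plaque response list were called higher, beside 21.5% of all genes tested, and 30 of them by more than 2-fold. The list was compiled from genes known to rise around plaques, partly in work that includes these mice, and its direction is not independent evidence. The median log2 fold change was 1.74, beside -0.06 for all genes, and it lay between 1.65 and 1.85 in the 4 pools taken singly. The CPM values did not overlap between the genotypes for any of the 41 genes, beside 27.4% of all genes tested without overlap. Apoe (chr7:19696109-19699188), the main lipid carrier of the brain, was at 1151, 2177, 1547 and 1556 CPM in WT and at 8306, 10398, 9636 and 8041 CPM in AppSAA mice, which made it one of the most abundant transcripts of AppSAA microglia. Its log2 fold change was 2.51 (SE 0.20, adjusted p = 1.6e-08). Other members that rose were the integrin Itgax (3.11, SE 0.12), the β-glucan receptor Clec7a (2.87, SE 0.13), the phosphatidylserine receptor kinase Axl (2.71, SE 0.13) and the growth factor Csf1 (2.66, SE 0.09). Spp1, osteopontin, varied most within a group. It was at 19.1, 403, 51.6 and 95.5 CPM in WT and at 1093, 826, 1206 and 410 CPM in AppSAA mice, so the highest WT mouse and the lowest AppSAA mouse were close to each other (log2 fold change 2.88, SE 0.56, adjusted p = 0.00035). Without the WT mouse of pool 2 the log2 fold change was 3.89.

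Of 20 homeostatic microglia genes, 17 were called lower (29.4% of all genes were), 3 were not called and 0 rose, with a median of -0.41. P2ry12, the purinergic receptor that guides microglial processes, was at 2678, 2634, 2632 and 2498 CPM in WT and at 1680, 1511, 1620 and 1804 CPM in AppSAA mice (log2 fold change -0.66, SE 0.10, adjusted p = 2.4e-05). The groups stood apart, but the fall was well under 2-fold. Tmem119 fell by 0.67 (SE 0.07) and P2ry13 by 0.59 (SE 0.05). Fcrls was at -0.38 (SE 0.16, adjusted p = 0.058, and called under 7 of the alternative settings), and 2 of its AppSAA mice, at 923 and 841 CPM, lay far below the WT range of 1397 to 1693 CPM, whereas the other two lay at 1751 and 1380.

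Lipid genes moved in both directions. Of 32 tested genes of uptake, storage and efflux, 19 rose, 14 of them by more than 2-fold, and 7 fell. Lpl, lipoprotein lipase, was at 42.7, 93.9, 56.6 and 43.8 CPM in WT and at 475, 570, 512 and 470 CPM in AppSAA mice (log2 fold change 3.11, SE 0.20). Ch25h, which makes 25-hydroxycholesterol, rose by 3.08 (SE 0.26), whereas the lipoprotein receptor Lrp1 and the lysosomal cholesterol exporter Npc1 were at 0.04 (SE 0.04) and -0.09 (SE 0.05). Cholesterol synthesis was more uniform, with 21 of 22 genes called higher (17 with plain library totals) and a median of 0.85. Sqle, the squalene epoxidase, rose from 1.04 ± 0.336 to 6.21 ± 0.953 CPM (SD, n = 4; log2 fold change 2.59, SE 0.15), and Stard4 and Cyp51 rose by 1.72 and 1.43. Ebp, at 95.0 CPM in WT, was the member not called (0.03, SE 0.03).

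Lysosomal genes rose selectively. Of 41 hydrolases and membrane proteins 26 rose and 5 fell, with a median of 0.27. With plain library totals the split was 18 to 14. The α-galactosidase Gla (1.84, SE 0.12), the tetraspanin Cd63 (1.18, SE 0.07), the β-glucuronidase Gusb (1.07, SE 0.04) and Galns (1.04, SE 0.09) led the list. Cd63 was at 611, 591, 541 and 522 CPM in WT and at 1257, 1408, 1277 and 1170 CPM in AppSAA mice. In contrast Psap, the saposin precursor and one of the most abundant lysosomal transcripts, was at -0.01 (SE 0.04). Among cathepsins and cystatins 11 of 16 rose and 4 fell (9 and 5 with plain library totals). Besides Cst7, the largest rises were those of Ctse (3.76, SE 0.27) and Ctsw (1.53, SE 0.45), both below 10 CPM, and of the abundant Ctsl (1.10, SE 0.07). The dipeptidyl peptidase Ctsc was at 0.02 (SE 0.05). Of 17 vacuolar ATPase genes 11 rose and 1 fell. A single subunit dominated, Atp6v0d2, at 10.8 ± 3.33 CPM in AppSAA against 0.542 ± 0.371 CPM in WT mice (SD, n = 4; log2 fold change 4.19, SE 0.38, and 4.83 without pool 4). The common subunits Atp6v1a, Atp6v0c and Atp6v1f rose by 0.66, 0.62 and 0.60, and with plain library totals the list split into 8 rises and 7 falls.

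Antigen presentation genes rose in both classes. Of 17 MHC class I genes 14 rose and 0 fell (12 and 3 with plain library totals), with a median of 0.54. H2-D1, a classical class I heavy chain, was at 613, 753, 576 and 618 CPM in WT and at 1525, 1598, 1398 and 1061 CPM in AppSAA mice (log2 fold change 1.11, SE 0.10, adjusted p = 3.5e-08). H2-K1 rose by 0.89 (SE 0.09). The non-classical H2-Q7 and H2-Q6 rose by 1.62 (SE 0.22) and 1.55 (SE 0.23), but they are near-identical copies whose reads can be split between them. The peptide transporter Tap2 and the proteasome subunit Psmb10 were at 0.03 (SE 0.04) and 0.01 (SE 0.05). Class II was more variable between mice. Of 12 genes 8 rose and 2 fell. Cd74, the invariant chain, was at 112, 133, 140 and 113 CPM in WT and at 668, 996, 1535 and 582 CPM in AppSAA mice (log2 fold change 2.86, SE 0.19). H2-Aa rose by 2.86 (SE 0.25), H2-Ab1 by 2.53 (SE 0.19) and H2-Eb1 by 2.38 (SE 0.23). In all 4 genes the AppSAA mouse of pool 3 was the highest, with H2-Aa at 444 CPM beside 133 to 179 in the other AppSAA mice. The costimulatory receptor Cd40 was at 0.25 (SE 0.26).

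Interferon-stimulated genes were called higher for 36 of 48 tested and lower for 2 (28 and 4 with plain library totals), with a median of 0.69. Ifi27l2a was at 53.4, 89.1, 47.0 and 61.8 CPM in WT and at 241, 275, 218 and 181 CPM in AppSAA mice (log2 fold change 1.86, SE 0.19, adjusted p = 3.5e-07). Ifitm2, which restricts virus entry, rose by 2.02 (SE 0.14), Slfn5 by 1.62 (SE 0.17) and the rare Ifi44 by 1.81 (SE 0.42). Not every member moved, since Trim30a and Parp14 were at 0.14 (SE 0.08) and 0.09 (SE 0.07). Promoters of these genes were read from RefSeq (GRCm38.p6), as the 300 bases around the annotated start, most of them upstream of it. The core of the interferon-stimulated response element was searched as GAAA, any 2 bases and GAAA on both strands. It occurred in the promoters of 14 of the 28 risen members with a promoter in the table (50%). Of the 38 tested members with one, 23 held it (60.5%), beside 3.99% of 27025 genes. The core was thus not more common in the risen members than in all tested members. The list holds genes known to respond to interferon, so its excess over all genes is not independent evidence. The promoters of Ifitm2 (chr7:140955912-140956211, minus strand) and Slfn5 (chr11:82951852-82952151, plus strand) are shown, 5′ to 3′, because these rose most among members of at least 10 CPM that hold the core, which is in capitals.
Ifitm2: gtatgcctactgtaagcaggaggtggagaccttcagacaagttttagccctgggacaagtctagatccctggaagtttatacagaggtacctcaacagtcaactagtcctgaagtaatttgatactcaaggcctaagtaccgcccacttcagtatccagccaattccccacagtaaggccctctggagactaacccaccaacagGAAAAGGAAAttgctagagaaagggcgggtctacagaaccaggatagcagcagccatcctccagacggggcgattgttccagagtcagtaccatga
Slfn5: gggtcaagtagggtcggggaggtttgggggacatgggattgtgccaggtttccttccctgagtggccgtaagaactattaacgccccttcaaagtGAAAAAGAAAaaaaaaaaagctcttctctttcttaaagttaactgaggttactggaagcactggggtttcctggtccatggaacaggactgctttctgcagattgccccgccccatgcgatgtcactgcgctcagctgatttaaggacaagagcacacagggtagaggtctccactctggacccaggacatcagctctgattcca
The core lies upstream of the RefSeq start in both. For Slfn5 the annotations differ, and its GENCODE start lies upstream of the whole printed window. A core of the sterol regulatory element, searched as TCACCCCAC and GTGGGGTGA, occurred in 1 of the 15 risen cholesterol synthesis genes with a promoter in the table (6.67%) and in 0.614% of all genes. That gene was Hmgcs1, the hydroxymethylglutaryl-CoA synthase, which rose by 0.78 (SE 0.06) and was singled out for the match, after its values were seen. A match is a string in this window and was not tested as a binding site.

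Cytokine genes showed no common direction. Of 34 cytokine and cytokine receptor genes 8 rose and 14 fell, with a median of 0.01, and with plain library totals 7 rose and 18 fell. Of 17 NF-kB subunit and feedback genes 4 rose and 6 fell, shares near those of all genes (21.5% and 29.4%). Csf1, the growth factor for microglia themselves, was the largest rise, at 32.0, 32.3, 46.2 and 42.8 CPM in WT and at 189, 231, 288 and 252 CPM in AppSAA mice. Tnfsf8 rose by 1.55 (SE 0.14) and the inflammatory cytokine Il1b by 1.23 (SE 0.13). Tgfb1 was at 0.02 (SE 0.03) and the NF-kB inhibitor Nfkbia at 0.29 (SE 0.13, adjusted p = 0.071, and called under 4 of the alternative settings). Of 23 chemokine and chemokine receptor genes 11 rose and 3 fell. Ccl6 rose from 128 to 194 CPM in WT to 628 to 1031 in AppSAA mice (log2 fold change 2.34, SE 0.11), and the receptor Cxcr4 and the chemokine Cxcl14 rose by 3.21 (SE 0.25) and 2.58 (SE 0.28). The rise of Cxcl14 was 3.48 without the WT mouse of pool 2. Cxcl9 was called (2.97, SE 0.66) although its groups overlapped, the AppSAA mice ranging from 1.12 to 19.4 CPM, and was at 2.25 without the AppSAA mouse of pool 3. The interferon-induced Cxcl10 and Ccl12 were at 0.16 (SE 0.16) and 0.22 (SE 0.12), and Ccl12 was called under 4 of the alternative settings. Growth and trophic factors rose for 13 of 21 genes and fell for 3, 1 of these by more than 2-fold. With plain library totals 12 rose and 6 fell. The rises were led by Igf1 and by Tgfb2 (3.02, SE 0.40), which remained near 1 CPM.

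Receptor genes moved in both directions. Of 34 phagocytic, Fc and pattern recognition receptors 14 rose and 12 fell, and with plain library totals 11 and 17. Clec7a was at 42.6, 65.9, 58.7 and 51.4 CPM in WT and at 336, 458, 395 and 411 CPM in AppSAA mice, whereas the abundant Fc receptor Fcgr3 and the integrin Itgb5 were at -0.08 (SE 0.06) and 0.04 (SE 0.05). Of 22 inhibitory receptors and checkpoint genes 12 rose and 6 fell, and with plain library totals 10 and 9. Lilrb4a rose by 2.56 (SE 0.18) and Cd200r4 by 2.79 (SE 0.14); both belong to gene families whose reads can be shared. Btla had the largest fitted rise (5.26, SE 0.61) but was at 1.33 CPM in AppSAA mice, and without the WT mouse of pool 1 the fitted rise was 6.47. The abundant receptors Sirpa and Havcr2 were at 0.02 (SE 0.04) and -0.03 (SE 0.08). Of 44 adhesion, cytoskeleton and matrix genes 22 rose and 6 fell (17 and 15 with plain library totals), with Anxa2 (3.04, SE 0.21), Lgals3 (2.26, SE 0.33), Vim (2.14, SE 0.21) and Cd44 (1.82, SE 0.18) in front and Actb at -0.04 (SE 0.06). For Lgals3, galectin-3, the WT mouse of pool 2 was at 36.7 CPM, above the 10.1 to 12.5 of the other WT mice, and without it the log2 fold change was 3.01. Of 17 complement genes 6 rose and 3 fell, and with plain library totals 4 and 5. Itgax, a complement receptor chain, C3 (2.19, SE 0.24) and Cfb (1.87, SE 0.25) rose most. C1qa and C1qb, among the most abundant transcripts of these cells, were at 0.10 (SE 0.05, adjusted p = 0.095) and 0.11 (SE 0.05, adjusted p = 0.051). C1qa was called higher under 4 of the alternative settings and C1qb under 6, and both lay below 0 with plain library totals.

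Most listed genes of protein synthesis and energy metabolism rose, the majority of them by less than 2-fold. Of 82 cytosolic ribosomal protein genes 81 rose and 1 fell, with a median of 0.81, and their share of all UMIs was 10.8%, 10.9%, 10.3% and 10.3% in WT and 15.4%, 17.9%, 15.6% and 16.3% in AppSAA mice. Rpl41, Rpl23 and Rpl10a rose by 1.20 (SE 0.08), 1.04 (SE 0.07) and 1.04 (SE 0.07). Of 76 nuclear genes of oxidative phosphorylation 61 rose and 0 fell, with a median of 0.39. With plain library totals 48 rose and 12 fell. Ndufa1, a complex I subunit, was at 82.2, 101, 73.8 and 78.2 CPM in WT and at 214, 289, 197 and 189 CPM in AppSAA mice (log2 fold change 1.40, SE 0.05), and Uqcrh, Cox6a1 and Cox8a rose by 0.89, 0.86 and 0.82. All 13 protein-coding genes of the mitochondrial genome rose, by a median of 0.53, and mt-Co1 by 0.61 (SE 0.05). Of 23 glycolysis genes 14 rose and 5 fell, with a median of 0.69. Pkm was at 227, 195, 184 and 177 CPM in WT and at 480, 476, 441 and 403 CPM in AppSAA mice (log2 fold change 1.21, SE 0.08), and Tpi1, Pgk1 and the lactate transporter Slc16a3 rose by 1.28, 1.21 and 1.06. Cell cycle genes rose for 26 of 33 and fell for 0 (18 and 1 with plain library totals), with a median of 0.64. Cdk1, the mitotic kinase, was at 5.65, 4.66, 7.17 and 7.93 CPM in WT and at 15.3, 15.9, 14.9 and 15.5 CPM in AppSAA mice (log2 fold change 1.25, SE 0.14), and Ube2c, Ccnb2 and Cenpe rose by 1.46, 1.38 and 1.34.

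Iron genes were divided. Of 17 tested, 7 rose and 6 fell, and with plain library totals 4 and 8. The ferritin chains Fth1 and Ftl1 rose by 0.91 (SE 0.08) and 0.71 (SE 0.07), whereas the iron exporter Slc40a1 fell from 124 ± 17.4 to 64.2 ± 5.16 CPM (SD, n = 4; log2 fold change -0.94, SE 0.10). Tfrc, the mouse gene of the receptor that carries the human knock-in, rose by 0.48 (SE 0.12), at 4.13 to 5.21 CPM in WT and 5.41 to 7.55 CPM in AppSAA mice. Of 26 genes of oxidant production and defence 18 rose and 5 fell (8 and 6 with plain library totals), among them the NADPH oxidase subunit Cybb (1.74, SE 0.23) and the metallothionein Mt1 (1.22, SE 0.07) upward. Heat shock and unfolded protein response genes mostly did not pass the test, with 5 of 28 higher and 7 lower, shares near those of all genes, and 4 and 17 with plain library totals. Hspa1a and Hspa1b, near-identical copies, fell by 1.04 (SE 0.33) and 1.24 (SE 0.40), and their groups overlapped. Without the WT mouse of pool 4 neither passed the test (-0.48, adjusted p = 0.17, and -0.51, adjusted p = 0.27). Immediate early genes rose for 6 of 21 and fell for 3 (5 and 6 with plain library totals), with Fos at 0.05 (SE 0.11) and Gadd45b rising by 1.51 (SE 0.19). Of 11 glucocorticoid-responsive genes 4 rose and 5 fell (2 and 5 with plain library totals), with Txnip falling by 0.65 (SE 0.08).

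Transcription factors of macrophages and microglia mostly fell. Of 30 tested, 4 rose and 16 fell, with a median of -0.19. Bhlhe40 was at 0.942, 2.33, 1.81 and 2.19 CPM in WT and at 19.9, 27.8, 28.1 and 20.7 CPM in AppSAA mice (log2 fold change 3.67, SE 0.20), and Hif1a, the hypoxia-inducible factor, rose from 101 ± 5.72 to 298 ± 34.8 CPM (SD, n = 4; log2 fold change 1.56, SE 0.05). Maf fell from 648 to 802 CPM in WT to 364 to 450 in AppSAA mice (-0.85, SE 0.08), and Sall1, which maintains microglial identity, fell by 0.48 (SE 0.06). Mef2c and Cebpb were at -0.09 (SE 0.04) and 0.03 (SE 0.09). TGF-β signalling genes rose for 5 of 16 and fell for 9, with Bambi rising by 1.22 (SE 0.14) and Eng falling by 0.62 (SE 0.06).

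In the Trem2 pathway the receptor complex rose and most of the other listed genes fell. Trem2 (chr17:48346401-48354147) was at 3032, 2811, 2647 and 2496 CPM in WT and at 4907, 5239, 4420 and 4077 CPM in AppSAA mice (log2 fold change 0.76, SE 0.06, adjusted p = 7.9e-09). Its adaptor Tyrobp was at 3350, 3166, 2744 and 2757 CPM in WT and at 6667, 7240, 5564 and 5664 CPM in AppSAA mice (log2 fold change 1.06, SE 0.06). The related adaptor Hcst rose by 1.21 (SE 0.13) and the adaptor Lat2 by 0.62 (SE 0.04). Of all 20 genes of the list 6 rose and 12 fell, with a median of -0.17, and Grb2 was at -0.07 (SE 0.04). With plain library totals 4 rose and 13 fell. Among 27 genes linked to Alzheimer's disease risk 7 rose and 15 fell, with Apoe, Ace (2.63, SE 0.37, below 1 CPM), Scimp (1.01, SE 0.16) and Trem2 as the largest rises. App itself, the gene that carries the mutations, was at 135, 128, 124 and 122 CPM in WT and at 151, 147, 143 and 132 CPM in AppSAA mice (log2 fold change 0.17, SE 0.03, adjusted p = 0.00027), and with plain library totals the difference was -0.02. Counts of 3′ ends do not read the mutated exons, so App does not check the genotype labels. Among 16 genes of App and its processing 6 rose and 4 fell, and with plain library totals 2 rose and 6 fell. Aplp2, an App homologue, rose from 74.1 ± 4.49 to 237 ± 26.9 CPM (SD, n = 4; log2 fold change 1.67, SE 0.07), and the β-secretase gene Bace1 fell by 0.47 (SE 0.10).

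**Figure D3:**
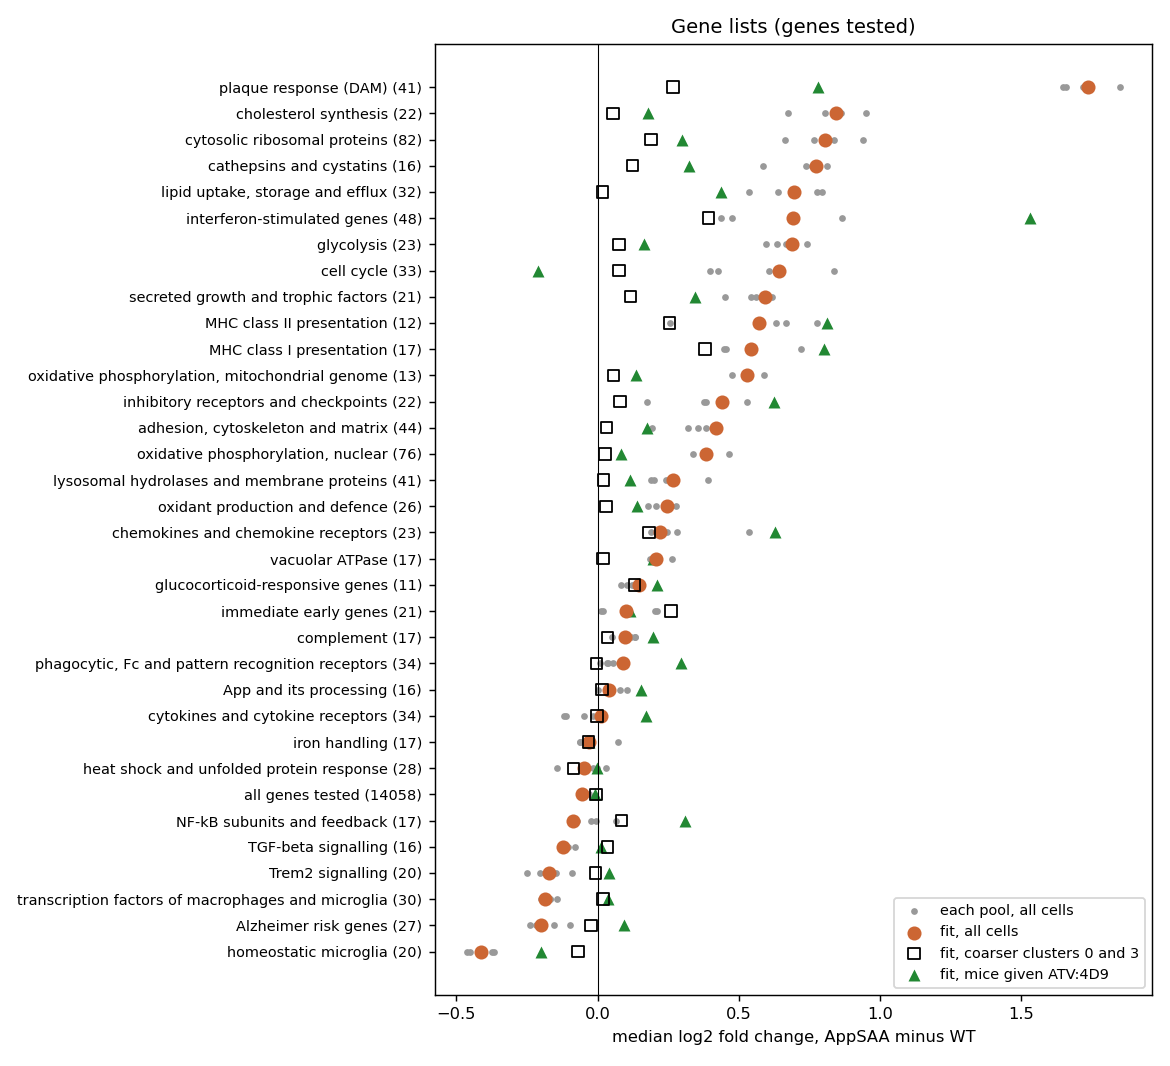
Median log2 fold change, AppSAA minus WT, of each gene list (number of genes tested in brackets). Filled circles give the fit over all cells, grey points the 4 pools taken singly, open squares the fit with only coarser clusters 0 and 3, and triangles the fit in mice given ATV:4D9. The plaque response list lies at 1.74 and the homeostatic list at -0.41 in all cells, and the open squares lie closer to 0 for most lists.

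The summed differences were accompanied by a different makeup of the cells. Clusters were those deposited by the authors, and they were formed from the same transcriptomes, so shares and gene differences are not independent of each other. At the finer resolution, cluster 0 held 54.3%, 59.1%, 59.5% and 60.1% of the cells of the WT mice and 32.9%, 29.4%, 31.5% and 30.7% of those of the AppSAA mice. Cluster 2, which had the most Fos, held 36.9% ± 2.94 of WT and 23.7% ± 3.51 of AppSAA cells (SD, n = 4). Cluster 3 held 1.00%, 1.83%, 1.09% and 0.870% of WT cells and 24.0%, 31.9%, 26.2% and 28.4% of AppSAA cells. Cst7 was at 2121 CPM of the summed isotype cells of cluster 3 and at 94.7 CPM in those of cluster 0. Cluster 6, with Gpnmb at 704 CPM and Cst7 at 4164 CPM, held at most 0.446% of the cells of a WT mouse and 5.78% to 9.58% of those of an AppSAA mouse. Cluster 8 held 0.439% ± 0.314 and 3.62% ± 0.796, cluster 5, with the most Ifit3, held 1.10% ± 0.355 and 2.89% ± 1.06, and the cycling cluster 7, with the most Mki67, held 0.291% ± 0.115 and 0.813% ± 0.149 (SD, n = 4). In 8 of the 9 clusters the 2 groups did not overlap, each with p = 0.0286 in a two-sided exact permutation test, the smallest that 4 against 4 mice can give, and an adjusted p of 0.0321. Cluster 1 overlapped (1.57% ± 0.360 against 2.07% ± 0.399, exact p = 0.143).

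**Figure D4:**
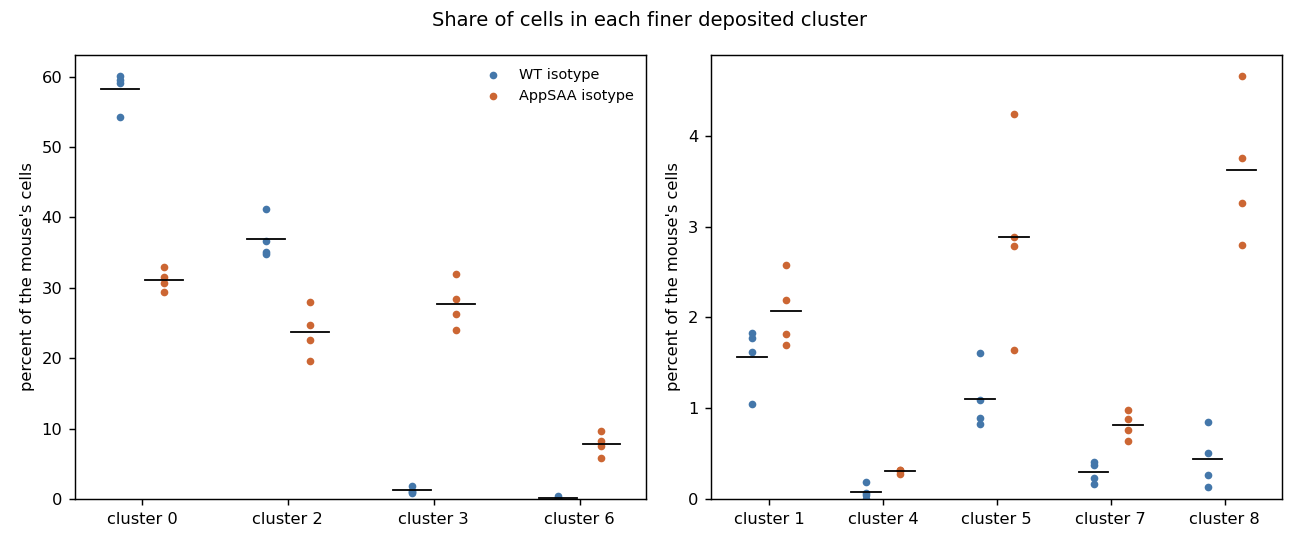
Percent of a mouse's cells in each finer deposited cluster (points are mice, bars are means of 4 mice), with the larger clusters on the left and the smaller ones on the right. WT and AppSAA mice stand apart in every cluster except cluster 1.

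The RNA content of single cells was compared next. The median UMIs per cell were 6859, 7189, 8042 and 8174 in WT and 8445, 9194, 9884 and 9832 in AppSAA mice, higher in AppSAA in 4 of 4 pools. The groups did not overlap, and the exact permutation test gave p = 0.0286, the smallest possible with 4 against 4 mice. Adjusted over 3 cell measures it was 0.0857, and it could not fall below 0.05 in this design unless another measure was also low. The other measures overlapped between the groups but were higher in AppSAA in 4 of 4 pools. The median genes per cell were 2795 ± 180 and 2991 ± 167 (SD, n = 4), higher in AppSAA by 160 to 212 within the pools. The exact permutation test, which does not use the pools, gave p = 0.171 (adjusted p = 0.257). The median mitochondrial percentage was 1.25 ± 0.255 and 1.49 ± 0.310 (SD, n = 4), higher by 0.183 to 0.308 within the pools (exact permutation p = 0.286 before and after adjustment). The part of these measures in the gene differences was not tested. Within coarser clusters 0 and 3, which hold most cells of finer clusters 0 and 2, the medians were 7505 ± 627 and 7772 ± 530 (SD, n = 4). The groups overlapped, and AppSAA was higher in 4 of 4 pools, by 127 to 413 UMIs. AppSAA cells of coarser cluster 1, which holds most cells of finer clusters 3, 6 and 8, had a median of 14400 ± 732, and the few WT cells there 13345 ± 4910 (SD, n = 4). These groups overlapped, with AppSAA higher in 2 of 4 pools.

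When only coarser clusters 0 and 3 were summed, 570 of 12545 genes (4.54%) were called, 359 of them higher (2.86%). This fit also used all 20 mice. In the mice given ATV:4D9, cluster 0 held 0.926% to 5.09% and cluster 3 1.72% to 5.84% of a mouse's cells. Their sums thus rest on few cells but enter the shared spread of the fit. The part of this in the smaller number of calls was not tested. Of the 735 genes that rose more than 2-fold in all cells, 439 could be tested in these clusters and 109 were called. The median log2 fold change of these 439 was 1.49 in all cells, where they were picked for it, and 0.31 in these clusters. The plaque response median went from 1.74 to 0.27, with 23 of 41 genes called higher, and that of the ribosomal protein genes from 0.81 to 0.19, with 48 of 82. Cholesterol synthesis went from 0.85 to 0.06, with 0 of 22 called, and nuclear oxidative phosphorylation from 0.39 to 0.03, with 1 of 76 called higher. The homeostatic list went from -0.41 to -0.07, with 4 of 20 called lower. MHC class I went from 0.54 to 0.38, with 12 of 17 genes called higher, and interferon-stimulated genes went from 0.69 to 0.39, with 27 called higher of 47 tested. The immediate early genes were at 0.10 in all cells and at 0.26 there, with 7 of 21 called higher. Coarser cluster 3 holds most cells of the Fos-rich finer cluster 2. Mean shares of coarser clusters 0 and 3 were 60.4% and 35.8% in WT and 30.8% and 25.1% in AppSAA mice, so cluster 3 made up more of the summed cells in AppSAA mice. The part of this mix in the rise was not tested. H2-D1 was at 0.76 within these clusters and at 1.11 in all cells, whereas Apoe was at 0.22 and at 2.51 and Cst7 at 0.63 and at 4.00. No test compared the lists with each other, and the clusters were drawn on the same cells.

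The same genotype difference was measured in 8 other mice, 4 WT and 4 AppSAA, that had received ATV:4D9, a Trem2-activating antibody in the same format. There 4409 of 14058 genes (31.4%) were called, 2388 higher and 2021 lower in AppSAA mice. Without the pool term 1661 were called. Of the 735 genes that rose more than 2-fold under isotype, 475 were also called higher under ATV:4D9. The median of the 735 was 0.76 there, but they were picked for a high value under isotype, so a lower value elsewhere follows in part from the choice. The interaction of genotype and antibody was called for 4284 genes (30.5%), for 1285 without the pool term and for 2342 without pool 4, the pool with the female mouse. Over all genes the signed difference, AppSAA minus WT, was the higher one under isotype for 1907 of these and under ATV:4D9 for 2377. Cst7 differed by 1.88 between the genotypes under ATV:4D9 and by 4.00 under isotype (interaction 2.11, adjusted p = 5.8e-08), and Lpl by 0.61 and 3.11. For Apoe (2.64 and 2.51), Gpnmb (3.92 and 4.45), Igf1 (3.65 and 4.41) and Fabp5 (3.49 and 4.05) the interaction was not called. A difference between genotypes does not show which genotype's level moved. In the WT mice given ATV:4D9 finer cluster 0 held 3.15%, 3.95%, 1.99% and 2.08% of the cells, beside 54.3% to 60.1% in WT isotype mice. Among the lists, the interaction was called with the higher signed difference under isotype for 30 of 41 plaque response genes, 16 of 22 cholesterol synthesis genes, 27 of 33 cell cycle genes and 78 of 82 ribosomal protein genes. It was called with the higher signed difference under ATV:4D9 for 32 of 48 interferon-stimulated genes, with 1 called the other way, and for 8 of 17 MHC class I genes, with 0 the other way. The other members of these lists were mostly not called, which does not give them a direction. The cell cycle genes differed in direction. Under isotype their median was 0.64, with 26 called higher. Under ATV:4D9 it was -0.21, with 0 called higher and 15 called lower, beside 2388 higher and 2021 lower of all 14058 genes. In 4 further AppSAA mice given 4D9 without the transferrin receptor binding, 0 genes were called against the AppSAA isotype mice by edgeR. DESeq2 and limma voom called 0 as well. By edgeR 280 of the 14058 genes had an unadjusted p under 0.05, fewer than that cutoff gives by chance.

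**Figure D5:**
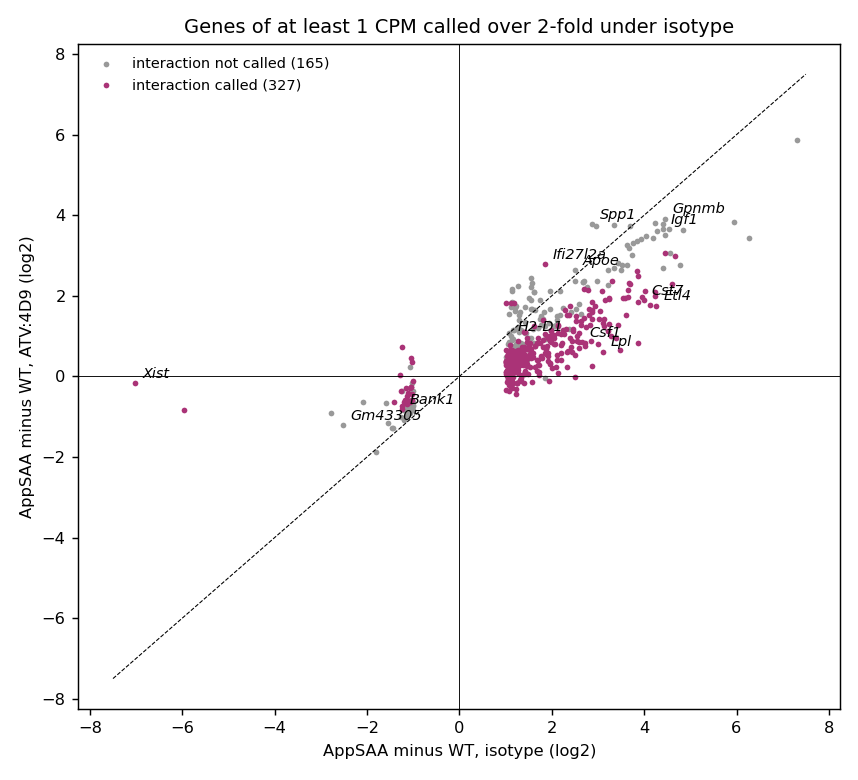
Log2 fold change, AppSAA minus WT, in isotype mice (x axis) and in mice given ATV:4D9 (y axis) for the 492 genes with a mean of at least 1 CPM that were called at more than 2-fold under isotype; the dashed line marks equal differences, and the genes were picked by their x value. The interaction was called for 327 of them, and most of these lie between the dashed line and the x axis, while Apoe, Gpnmb and Igf1 lie near the line.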

How the data were processed

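Single-cell libraries (10x, 3′ ends) of sorted microglia were processed by the authors with Cell Ranger 6.1.1 against mm10, per the submitters' processing notes, and filtered and clustered in Seurat 4. The deposited matrix holds raw UMI counts of 19737 genes in 74758 cells, and the deposited metadata give mitochondrial percent, clusters, group and pool. How doublets were treated is taken as deposited, and no caller was run; 144 WT and 953 AppSAA isotype cells held over 25000 UMIs. The sources differ on the sort (CD11b or CD45 and CD11b) and on the tissue (cortex with or without hippocampus).

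Counts were summed per mouse. All 20 mice of 5 groups were fitted with edgeR 4.0.16 (TMM, low-count filter by group, quasi-likelihood test, Benjamini-Hochberg adjustment at 0.05; R 4.3.3) with group and pool as terms. CPM values use TMM-scaled totals. Pools pair the mice: deviations from the group means correlated within each pool (r = 0.373, 0.221, 0.327 and 0.440). Mice were separate animals. Shares and depths were compared by two-sided exact permutation tests. On simulated data with 14058 genes, 200 of them changed and as many up as down, 91% of 2-fold and 74% of 1.5-fold changes were called. Of the calls, 1.79% were unchanged genes. The simulation did not cover TMM scaling when as many genes differ as were called here, so it gives no error rate for that case.

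Named genes were the 12 largest rises and 12 largest falls with a mean of at least 10 CPM and no overlap, up to 4 called and 2 uncalled members per list, and App, Tfrc, Trem2, Tyrobp and Apoe; others are marked where named, and some members of the lists are not reported here. Flt1, Slc1a3, Ifit3 and Mki67 served as markers. The members and lists were chosen with earlier results of these data known. Alternatives were no pool term, the 8 isotype mice only, size factors, no filter, DESeq2 1.42.0, limma 3.58.1 voom, the homeostatic clusters, a UMI range, thinning, each mouse left out, and 2 added later. Promoters are from RefSeq and gene coordinates from GENCODE, both on GRCm38. Intervals and floors cover counting error only.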

Additional observations from a re-analysis of the deposited data

Results flagged for a closer look

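A single mouse stood apart from the other 3 of its group, by Dixon's 95% critical value, in 14 of 322 groups of 4 tested over the named genes and cell measures, where chance flags about 1 in 20. In the AppSAA mouse of pool 1 these values were 6133 CPM for Actb and 262 CPM for Crybb1. In the AppSAA mouse of pool 3 these values were 444 CPM for H2-Aa, 60.7 CPM for H2-Q7 and 19.0 CPM for Mki67. In the AppSAA mouse of pool 4 these values were 15.9 CPM for Gm43305, 6.79 CPM for Xist and 0.274% of its cells in finer cluster 4. In the WT mouse of pool 1 these values were 6480 CPM for Actb, 197 CPM for Gusb and 12.7 CPM for Itgax. In the WT mouse of pool 2 these values were 10.5 CPM for Cxcl14 and 36.7 CPM for Lgals3. In the WT mouse of pool 4 this value was 1305 CPM for Xist. The Xist value of the WT mouse of pool 4 goes with its recorded sex.

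The difference between AppSAA and WT mice itself differed between isotype and ATV:4D9 for 94 of the 149 named genes, by the interaction test. Among all genes tested the share was 30.5%. Many of the named genes were picked for a large difference under isotype, so a higher share among them follows in part from the choice. The values are the log2 difference under isotype minus that under ATV:4D9. Positive values were those of Yipf7 (6.13), Btla (3.87), Lpl (2.50), Etl4 (2.50), Tcap (2.32), Baiap2l2 (2.25), Cst7 (2.11), Tgfb2 (1.95), Csf1 (1.81), Itgax (1.79), Sqle (1.74) and Ccl6 (1.71). Smaller ones followed for Lilrb4a (1.67), Stard4 (1.60), Cd74 (1.43), Cdk1 (1.43), Anxa2 (1.42), Cenpe (1.38), Bhlhe40 (1.35), Cyp51 (1.30), Fabp3 (1.24), Clec7a (1.22), Lgals3 (1.22) and Gla (1.12). Next came Ccnb2 (1.10), Pkm (1.10), Mki67 (1.09), Tpi1 (1.05), Pgk1 (1.05), H2-Ab1 (1.05), Mt1 (1.03), Galns (1.03), Ifitm2 (1.02), H2-Aa (1.02), Gusb (1.01) and Ch25h (0.97). They continued with Slc16a3 (0.91), Hif1a (0.88), Rpl41 (0.86), Vim (0.85), Ndufa1 (0.85), H2-Eb1 (0.84), Aplp2 (0.84), Cd63 (0.77), Rpl10a (0.77), Bambi (0.76), Gadd45b (0.73) and Hcst (0.72). After these stood Cox6a1 (0.69), Cd200r4 (0.65), Lat2 (0.61), Tfrc (0.58), Rpl23 (0.55), Axl (0.54), Cox8a (0.54), Tyrobp (0.51), Trem2 (0.48), Ftl1 (0.45), Uqcrh (0.44) and Hmgcs1 (0.38). Still smaller were mt-Co1 (0.34), Atp6v0c (0.32), Ctsl (0.32), Atp6v1a (0.29), Lrp1 (0.27) and Atp6v1f (0.23). Negative values were those of Xist (-6.86), Hspa1b (-1.97), Hspa1a (-1.49), Parp14 (-1.001), Cd40 (-0.93), Ifi27l2a (-0.93), Ifit3 (-0.86), Ccl12 (-0.82), Trim30a (-0.81), Scimp (-0.80), Cxcl10 (-0.73) and Eng (-0.67). Closer to 0 were Clec4a2 (-0.59), Nhsl2 (-0.58), Col6a3 (-0.56), Maf (-0.54), Fcgr3 (-0.54), Tmem204 (-0.54), Psmb10 (-0.48), Crybb1 (-0.43), Bank1 (-0.43), Tmem119 (-0.39), Cebpb (-0.38) and Tap2 (-0.35). The remaining ones were Txnip (-0.35), Sall1 (-0.32), Grb2 (-0.28) and Psap (-0.17). A negative value means that the signed difference was lower under isotype. Yipf7 had 0 UMIs in WT isotype mice, so its fitted value depends on the prior count.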

How the results depend on the processing

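With the pool as a replicate block, which the main analysis used, 7166 genes were called, and without the replicate block 3960. The same change took the calls under ATV:4D9 from 4409 to 1661 and those of the interaction from 4284 to 1285. App (adjusted p = 0.051), Hspa1a (0.054) and Hspa1b (0.095) lost their call without the block, and the other named genes kept theirs. In the homeostatic clusters alone 570 genes were called, with fewer genes tested and fewer cells, above all in the mice given ATV:4D9, which the fit also used. Both of the following settings were added after seeing the data. Without pool 4, the pool with the female mouse, 5395 genes were called, 2823 of them higher and 2572 lower, and 2342 for the interaction. With plain library totals 9356 were called, and 7194 under ATV:4D9. Leaving out 1 mouse at a time gave 6270 to 6969 calls, 4245 to 4531 under ATV:4D9 and 3626 to 4354 for the interaction. Among named genes, Hspa1a, Hspa1b, Slc36a1 and Xist lost their call without pool 4, Hspa1a, Hspa1b and Xist without the WT mouse of pool 4, Hspa1b without the AppSAA mouse of pool 2 (adjusted p = 0.060) and by limma voom (0.070), Xist without the AppSAA mouse of pool 4, and Mki67 with only cells of 1000 to 25000 UMIs (0.058). In the homeostatic clusters 66 lost it. Calls were gained by Fcrls under 7 settings, C1qb under 6, C1qa, Ccl12 and Nfkbia under 4 each, Parp14 under 2, and Actb, Fcgr3, Fos, Grb2, Havcr2, Mef2c, Npc1, Psap and Trim30a under 1 each. DESeq2 called 6724 genes, limma voom 6866, size factors in place of TMM 6876, and no filter on low counts 6356, 3463 of them higher and 2893 lower. The log2 fold change of some named genes changed sign, most of them genes that were not called; the cause was not tested. With plain library totals it was -0.016, -0.087, -0.074, -0.16, -0.16, -0.023, -0.16, -0.13, -0.15, -0.15, -0.094, -0.18, -0.17, -0.16, -0.17 and -0.049 for App, C1qa, C1qb, Cebpb, Ctsc, Cxcl10, Ebp, Fos, Itgb5, Lrp1, Parp14, Psmb10, Sirpa, Tap2, Tgfb1 and Trim30a, respectively. In the homeostatic clusters alone it was 0.024, -0.18, -0.055, 0.098, -0.0015, -0.0064, 0.0066, -0.0024 and -0.057 for Actb, Bambi, Ebp, Havcr2, Hpse, Itgb5, Psap, Sirpa and Tgfb1, respectively. Without the filter on low counts it was 0.0051, 0.018 and 0.036 for Actb, Havcr2 and Psap, respectively. With only cells of 1000 to 25000 UMIs it was 0.0059 and 0.0082 for Havcr2 and Psap, respectively. Without pool 4 it was 0.0067 for Psap. With mice thinned to equal depth it was -0.0091 for Psmb10. With size factors it was 0.015 for Psap. With DESeq2 it was 0.015 for Psap. In a fit of the 8 isotype mice only it was 0.017 for Psap. Leaving out 1 mouse gave ranges across 0 of -0.015 to 0.086 for Cebpb, -0.0059 to 0.065 for Ctsc, -0.0071 to 0.29 for Cxcl10, -0.031 to 0.14 for Fos, -0.063 to 0.011 for Havcr2, -0.027 to 0.0077 for Psap and -0.010 to 0.033 for Psmb10. Shares of cells kept their direction, but 3 mice against 4 cannot pass the test after adjustment (adjusted p = 0.0643). The differences in percentage points, AppSAA minus WT, then ranged from -28.4 to -26.5 in finer cluster 0, -14.6 to -11.8 in finer cluster 2, 25.0 to 27.6 in finer cluster 3, 0.208 to 0.268 in finer cluster 4, 1.34 to 2.20 in finer cluster 5, 7.03 to 8.30 in finer cluster 6, 0.466 to 0.581 in finer cluster 7 and 2.83 to 3.45 in finer cluster 8. Median UMIs per cell were higher in AppSAA mice under every setting run (by 266.75 in coarser clusters 0 and 3), with a test too small to pass after adjustment unless other measures were low too. Rare transcripts below about 1 CPM rest on few UMIs in WT mice.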

Other observations

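A few genes with uneven values among mice of 1 group were singled out after their values were seen. Tpm3-rs7, a gene model on chromosome 14 (start 113314608, end 113316754), was at 4.99, 5.70, 8.45 and 9.07 CPM in the WT isotype mice and at 4.02, 101, 106 and 104 CPM in the AppSAA isotype mice of pools 1 to 4. In AppSAA mice given ATV:4D9 the pool 1 mouse was again low, at 5.78 CPM, beside 124 to 148 in the other pools. All 4 AppSAA mice given 4D9 lay between 99.7 and 238 CPM. The values thus fell into separate levels within a genotype.

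Rapgef6 and Slc36a1, which lie near each other on chromosome 11 (starts at 54522847 and 55204350), and the low Slc36a2 had their lowest isotype values in the same mouse, the AppSAA mouse of pool 1. It was at 25.0 CPM for Rapgef6, 12.2 CPM for Slc36a1 and 0 UMIs for Slc36a2, beside 1.43 to 2.75 CPM of Slc36a2 in the other AppSAA isotype mice and 4.22 to 5.13 in WT isotype mice. Slc36a2 was also low in the AppSAA mice of pools 1 and 3 given ATV:4D9 (0.144 and 0.179 CPM) and in that of pool 2 given 4D9 (0.131). Slc36a1 was at 9.82, 13.3 and 12.7 CPM in these. The other AppSAA mice given ATV:4D9 or 4D9 held 1.21 to 2.69 CPM of Slc36a2. Gm43305 ranged from 4.39 to 140 CPM among the AppSAA mice given ATV:4D9 and from 81.2 to 141 among the WT mice given it. Fcrl1 lay between 6.61 and 17.7 CPM in AppSAA isotype mice.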
